A study of Mus musculus with 12 samples.

Results

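The genes described are the G1 cyclins and cell cycle inhibitors of the mouse, 10 genes chosen by symbol (Ccnd1, Ccnd2, Ccnd3, Ccne1, Ccne2, Ccna2, Cdkn1a, Cdkn1b, Cdkn1c and Cdkn2a) out of 55414 genes in the count table. They were followed in the inferior vena cava (IVC), the large abdominal vein, of C57BL/6J wild-type mice, 10 weeks old, on day 7 after surgery. In 6 mice (3 female, 3 male) an infrarenal aortocaval fistula (AVF) was made with a needle passed from the aorta into the IVC, and 6 sham-operated mice (3 female, 3 male) went through the surgery without the puncture. Each mouse gave 1 library of poly-A RNA from 1 piece of vein, so vein wall and any attached tissue were measured together. Samples carry the study's numbers, and #05 (male) and #09 (female) are the AVF samples that the study set apart as OUT because of their expression, the other 4 being its nAVF group.

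Progression from G1 into S phase depends on cyclins that activate cyclin-dependent kinases (CDKs). D-type cyclins act with Cdk4 and Cdk6 and E-type cyclins with Cdk2 to phosphorylate Rb, which releases E2F factors and the genes of DNA synthesis, and cyclin A then acts with Cdk2 through S phase and with Cdk1 towards mitosis. The Cip/Kip inhibitors p21 (Cdkn1a), p27 (Cdkn1b) and p57 (Cdkn1c) restrain these kinases, and the INK4 inhibitors block Cdk4 and Cdk6; in the vein wall, entry of smooth muscle cells, fibroblasts and endothelial cells into this cycle is part of the wall thickening known from fistulae.

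The 3 genes that were called different lie, by the GENCODE annotation of GRCm39, on 3 chromosomes. Ccna2 (ENSMUSG00000027715) spans chr3:36619014-36626299 on the minus strand, Ccne2 (ENSMUSG00000028212) chr4:11190303-11204947 on the plus strand, and Cdkn1c (ENSMUSG00000037664) chr7:143012069-143014806 on the minus strand. Ccnd1 and Ccne1 are also on chromosome 7, Cdkn2a is on chromosome 4, Ccnd2 and Cdkn1b are on chromosome 6, and Ccnd3 and Cdkn1a are on chromosome 17. Values are counts over all annotated exons of a gene, so transcripts of 1 gene were not separated.

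The libraries held 15177881 to 22717423 counts, and 1 count was worth 0.0424 to 0.108 normalized CPM, that is, a count scaled to its library after TMM normalization in edgeR. Sample #07 (AVF, female) had 46.0% of its counts in ribosomal RNA genes against 2.39% to 12.6% in the others. Summed hepatocyte markers reached 2517 normalized CPM in #05 and 7467 in #09 against 0.287 to 4.30 in the other 10 libraries. Endothelial and smooth muscle markers were present in every library, and 0 of 6 in each list was called different between AVF and sham by edgeR's quasi-likelihood test (0 also at an unadjusted p under 0.05).

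Among the 10 genes, the A-type cyclin and 1 of the 2 E-type cyclins were higher in the AVF, and none of the 3 D-type cyclins was called different. Ccna2 rose 4.17-fold and Ccne2 rose 2.24-fold, Cdkn1c fell to 0.711 of its sham level, and 6 genes did not pass the test. Cdkn2a was too low to be tested in this comparison. In a whole vein, fewer cells of a type and less RNA per cell cannot be told apart. In edgeR's quasi-likelihood test with Benjamini-Hochberg adjustment over 15912 genes, 2 of the 9 tested members were called higher, where 8.63% of all tested genes were, and 1 was called lower, where 5.13% of all were. Both of the higher ones were also DEG, that is, at least 2-fold changed with an adjusted p value under 0.05, which held for 3.37% of all tested genes in the higher and 1.4% in the lower direction. The median log2 fold change of the 9 tested members was 0.22, and that of all tested genes was -0.01.

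**Figure D1:**
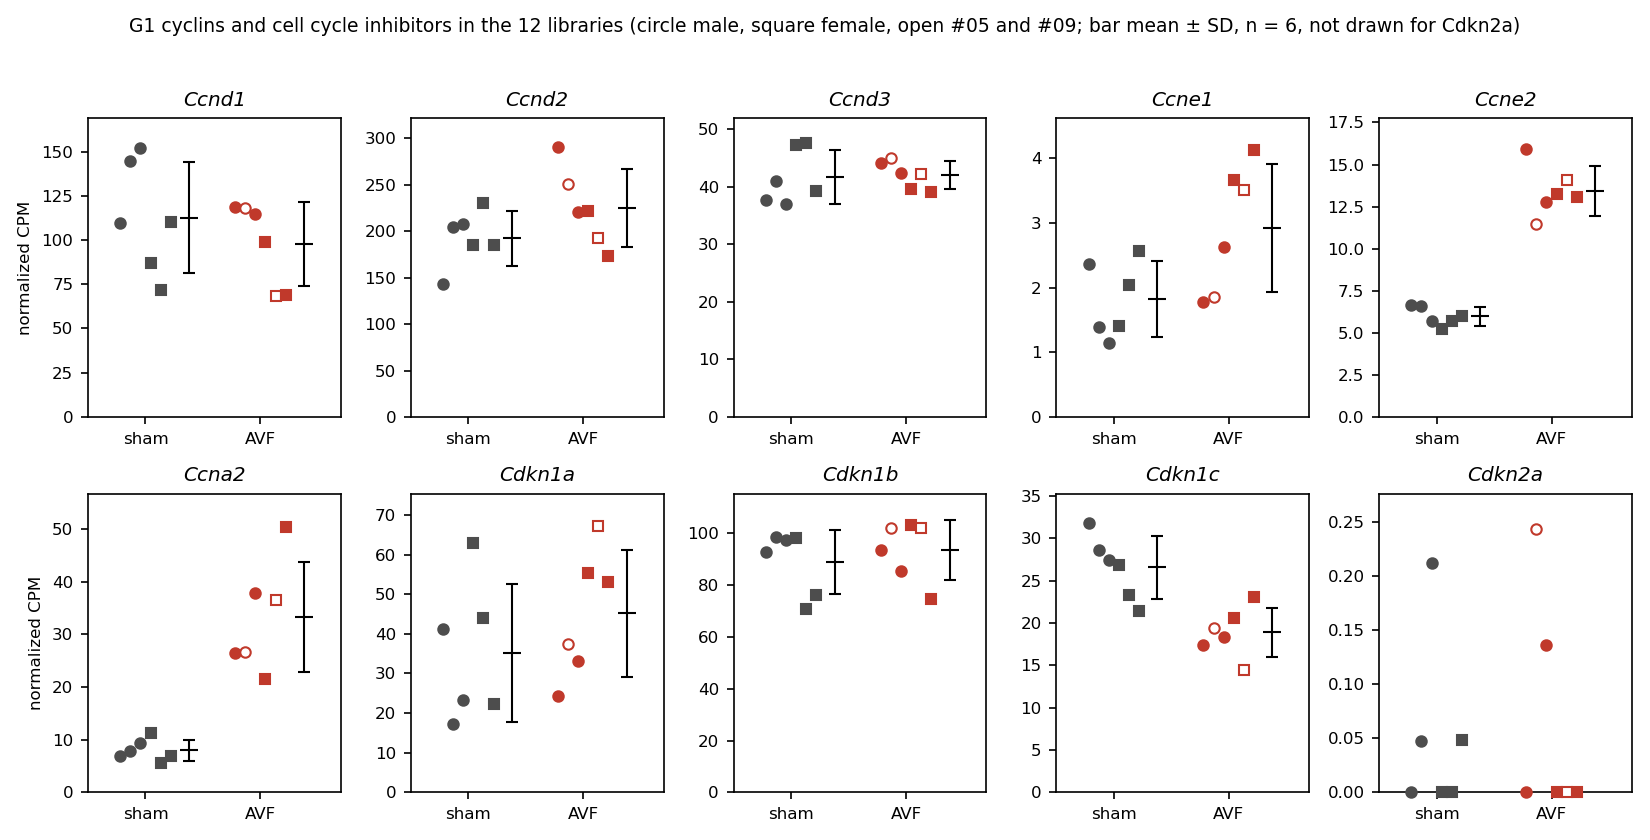
Normalized CPM of the 10 genes in each of the 12 libraries, 1 panel per gene with its own vertical axis from 0, sham in grey and AVF in red, males as circles, females as squares and samples #05 and #09 as open symbols; the horizontal dash and bar are the mean ± SD of 6 libraries (not drawn for Cdkn2a). For Ccne2 and Ccna2 all 6 AVF samples lie above all 6 sham samples, and the other genes overlap between the groups.

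The D-type cyclins answer to growth factors and act first in the sequence. Ccnd1 (cyclin D1) was 68.2 to 118 normalized CPM in AVF (median 107) and 71.8 to 152 in sham (median 110), and its log2 fold change was -0.20 ± 0.21 (SE, edgeR's quasi-likelihood test, adjusted p = 0.538). The groups overlapped over most of their range, and the lowest values of Ccnd1 in both operations belonged to female mice.

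Ccnd2 (cyclin D2) was 174 to 290 normalized CPM in AVF (median 221) and 143 to 230 in sham (median 195), with a log2 fold change of 0.22 ± 0.14 (SE, edgeR, adjusted p = 0.280). Ccnd3 (cyclin D3) was the steadiest of the D-type cyclins, at 39.05 to 45.1 normalized CPM in AVF (median 42.3) and 37.0 to 47.6 in sham (median 40.2). Its log2 fold change was 0.01 ± 0.08 (SE, adjusted p = 0.926), with a 95% interval of -0.16 to 0.19. The interval of Ccnd1, -0.65 to 0.24, was wider, as its values were more spread between mice.

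E-type cyclins are made late in G1 and fire Cdk2. Ccne2 (cyclin E2) was 11.4 to 15.9 normalized CPM in AVF (median 13.2) and 5.23 to 6.67 in sham (median 5.87). The lowest AVF sample, #05, was still above the highest sham sample, #16, so the groups did not overlap. The log2 fold change was 1.16 ± 0.11 (SE, edgeR's quasi-likelihood test, adjusted p = 8.5e-05), with a 95% interval of 0.94 to 1.39, and Ccne2 had the 12th lowest p value of the 15912 tested genes.

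Ccne1 (cyclin E1), the other E-type cyclin, was lower and more spread, at 1.77 to 4.13 normalized CPM in AVF (median 3.07) and 1.14 to 2.57 in sham (median 1.72). It rested on 27 to 88 counts per library. Its log2 fold change was 0.68 ± 0.28 (SE, edgeR, adjusted p = 0.119), so it did not pass the test. The AVF males #04 and #05, at 1.77 and 1.85, lay within the sham range, and the other 4 lay above it, the 3 females at 3.51 to 4.13 being the highest.

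Ccna2 (cyclin A2), the S phase and G2 cyclin, was 21.6 to 50.3 normalized CPM in AVF (median 31.6) and 5.51 to 11.2 in sham (median 7.44). The groups were well apart, since the lowest AVF sample, #07 at 21.6, stood above the highest sham sample, #19 at 11.2. The log2 fold change was 2.06 ± 0.22 (SE, edgeR's quasi-likelihood test, adjusted p = 0.000272), with a 95% interval of 1.58 to 2.54. Over all tested genes, 4.55% had all 6 AVF samples above all 6 sham samples and 1.51% had them all below, where among the 9 tested members 2 genes, Ccne2 and Ccna2, were above and 0 were below.

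Of the Cip/Kip inhibitors, Cdkn1c (p57) was 14.4 to 23.1 normalized CPM in AVF (median 18.9) and 21.4 to 31.8 in sham (median 27.1). Sample #11, the highest AVF sample at 23.1, lay above sham sample #23 at 21.4, and the other 5 AVF samples were below every sham sample. The log2 fold change was -0.49 ± 0.12 (SE, edgeR's quasi-likelihood test, adjusted p = 0.0228), with a 95% interval of -0.76 to -0.22. The call of Cdkn1c was lost without samples #05 and #09 (log2 fold change -0.42, adjusted p = 0.0696) and with edgeR's exact test (adjusted p = 0.0636), and sample #09 held the lowest value of all 12, 14.4.

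Cdkn1a (p21), a target of p53 and an inhibitor of Cdk2, varied more between mice than between operations, at 24.4 to 67.3 normalized CPM in AVF (median 45.3) and 17.3 to 62.9 in sham (median 32.2). Its log2 fold change was 0.36 ± 0.33 (SE, edgeR, adjusted p = 0.483) with a 95% interval of -0.34 to 1.06. Cdkn1b (p27), which binds Cdk2 complexes in resting cells, was 74.4 to 103 normalized CPM in AVF (median 97.9) and 70.9 to 98.6 in sham (median 95.1), with a log2 fold change of 0.07 ± 0.11 (SE, edgeR, adjusted p = 0.700). The operations overlapped for both genes.

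Cdkn2a, which encodes p16 and ARF from 1 locus, had 0 to 5 counts per library and 15 in all, and 7 of the 12 libraries had none. It stayed below 1 CPM in every library and was left out of the comparison of AVF with sham over both sexes. It did enter the comparisons within and between the sexes, whose filter was lower. The floor taken here, 3 counts, was worth 0.127 to 0.324 normalized CPM, and 2 of the 5 libraries with a count, #17 and #23, had 1 count each. The gene-level count does not separate p16 from ARF.

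**Figure D2:**
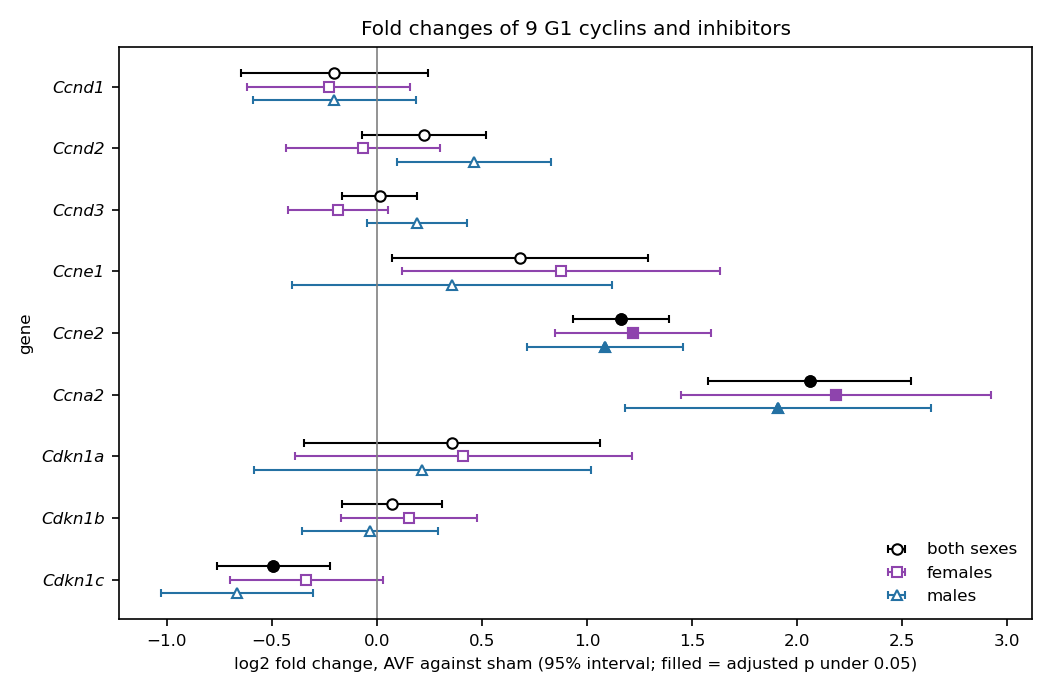
Log2 fold change of AVF against sham (horizontal axis) for the 9 tested genes, with its 95% interval, in both sexes together (circles), in females (squares) and in males (triangles); filled symbols passed an adjusted p value of 0.05. Ccne2 and Ccna2 lie to the right of 0 in all 3 comparisons, and the estimates of Ccnd2 and Ccnd3 lie left of 0 in females and right of 0 in males.

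Since longer transcripts give more fragments, levels were compared between genes per kb of annotated exon. In sham veins the order was Ccnd1 at 23.5, Ccnd2 at 20.5 and Cdkn1b at 19.5 normalized CPM per kb, then Cdkn1c at 12.3, Cdkn1a at 5.82, Ccnd3 at 4.51, Ccna2 at 1.95, Ccne2 at 1.07, Ccne1 at 0.501 and Cdkn2a at 0.0438 (means, n = 6). The first 3 overlapped in their ranges, as did Cdkn1c with Cdkn1a and Cdkn1a with Ccnd3, and from Ccnd3 downwards each gene lay below the range of the one before it. By this measure 2 of the 3 D-type cyclins and p27 came first among the 10 in sham veins. The A-type and E-type cyclins and Cdkn2a came last. The length counts the exons of all annotated transcripts, so the place of a gene also depends on its annotation. For Ccnd3 it was 9245 bases, where the principal transcript starts at chr17:47904364 and the gene ends at 47910624. Which transcripts the veins made was not tested.

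In AVF veins Ccnd2 at 23.9, Cdkn1b at 20.5 and Ccnd1 at 20.5 normalized CPM per kb again came first with overlapping ranges. Ccna2, in seventh place in sham, stood at 8.13 per kb in AVF and overlapped with Cdkn1c at 8.76 and Cdkn1a at 7.47, all of them above Ccne2 at 2.39 and Ccne1 at 0.807. Within single libraries the ratio of Ccna2 to Cdkn1c counts was 1.05 to 2.54 in AVF and 0.219 to 0.418 in sham, a pair of genes chosen after their values were seen.

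**Figure D3:**
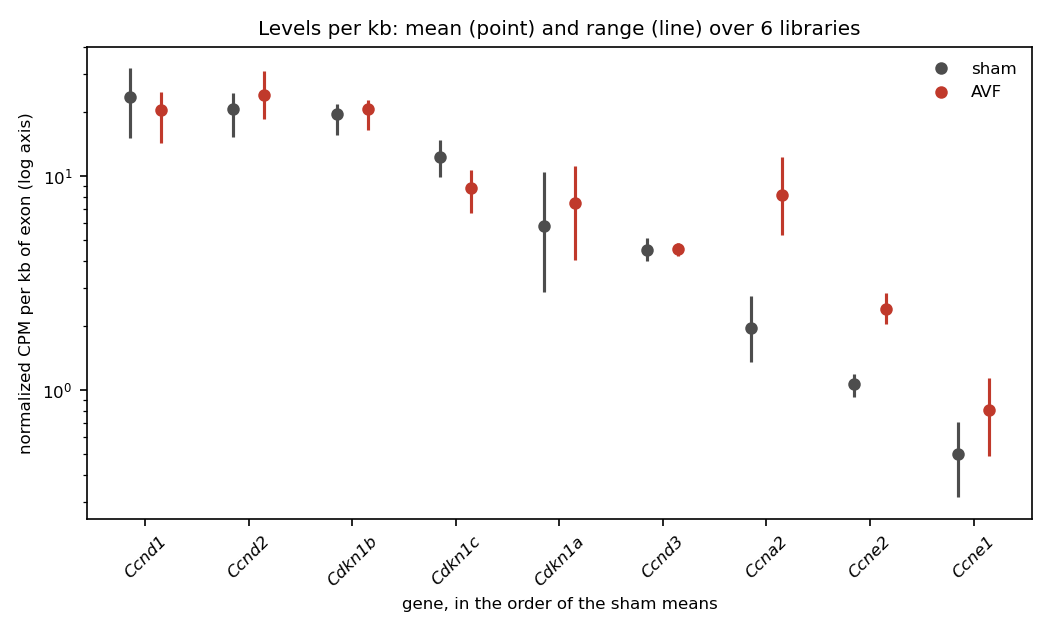
Level of 9 genes in normalized CPM per kb of exon on a log axis, in the order of the sham means, with the mean as a point and the range of 6 libraries as a line, sham in grey and AVF in red. Ccna2 moved from 1.95 in sham to 8.13 in AVF, and Ccnd1, Ccnd2 and Cdkn1b stayed at about 20 in both; Cdkn2a, near 0, is not drawn.

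The same contrast was made within each sex, in a fit of 4 groups of 3 mice over 22163 genes. In females 2 of the 10 genes were called higher and 0 lower, against 1.6% and 0.609% of all tested genes, and in males 2 were called higher and 0 lower, against 0.424% and 0.117% of all (edgeR's quasi-likelihood test). At an unadjusted p under 0.05 there were 3 higher and 0 lower in females and 3 higher and 1 lower in males, where 19.7% and 13.5% of all genes had such a p in either direction. DESeq2 called 0 lower in females and 1, Cdkn1c, lower in males (adjusted p = 0.0258), where it called 7.72% and 3.2% of all genes in either direction. The called genes were Ccne2 and Ccna2 in both sexes.

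Ccne2 was 13.05, 13.3 and 14.1 normalized CPM in AVF females against 5.23, 5.72 and 6.01 in sham females, a log2 fold change of 1.22 ± 0.17 (SE, edgeR, adjusted p = 0.00573). In males it was 11.4, 12.8 and 15.9 against 5.72, 6.59 and 6.67, a log2 fold change of 1.09 ± 0.17 (SE, edgeR, adjusted p = 0.0238). Ccna2 was 21.6, 36.6 and 50.3 in AVF females against 5.51, 6.83 and 11.2 in sham females (log2 fold change 2.19 ± 0.34, edgeR, adjusted p = 0.00832). In males Ccna2 was 26.5, 26.6 and 37.7 against 6.96, 7.93 and 9.36 (log2 fold change 1.91 ± 0.33, edgeR, adjusted p = 0.0351). AVF and sham did not overlap in either sex for these 2 genes. Fitted on the 6 female samples alone, neither passed (edgeR, adjusted p = 0.0649 for Ccne2 and 0.0865 for Ccna2). That fit called 0.0447% of all genes in either direction, where the main fit called 2.21% in females. The calls in males were lost in more of the alternatives. Both were lost when any of #04, #06 or the 3 male sham samples was left out, and that of Ccna2 also without #05. In these fits 0.0228% to 0.182% of all genes were called in males in either direction, against 0.541% in the main fit. The male call of Ccna2 was lost as well without #05 and #09 together (edgeR, adjusted p = 0.0595) and with the replicate block of sex and number (adjusted p = 0.0577), and that of Ccne2 with only the 6 male samples fitted (adjusted p = 0.0541). Of all genes 0.29%, 0.826% and 0.675% were called in males in these fits, in that order.

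With 3 mice against 3, groups without overlap are frequent, at 10.8% of all genes above and 9.96% below in females and 10.8% above and 11.4% below in males. Among the 10 genes the AVF females lay wholly above the sham females for Ccne1, Ccne2 and Ccna2, and the AVF males wholly above the sham males for Ccnd2, Ccnd3, Ccne2 and Ccna2. Cdkn1c was the gene whose AVF males, at 17.5, 18.3 and 19.4 normalized CPM, lay wholly below the sham males, at 27.4, 28.6 and 31.8, with a log2 fold change of -0.67 ± 0.17 (SE, edgeR, adjusted p = 0.121). In females Cdkn1c was 14.4, 20.6 and 23.1 in AVF and 21.4, 23.4 and 26.9 in sham, with a log2 fold change of -0.34 ± 0.17 (SE, edgeR, adjusted p = 0.288).

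Whether the effect of the AVF differed between the sexes was tested as an interaction. None of the 22163 genes was called in either direction (0% higher and 0% lower, edgeR's quasi-likelihood test), and so 0 of the 10 were called, also with DESeq2. At an unadjusted p under 0.05 there were 2 of the 10, where 4.82% of all genes had such a p, Ccnd2 (log2 difference of female minus male fold changes -0.53 ± 0.24, edgeR, adjusted p = 0.960) and Ccnd3 (-0.38 ± 0.15, edgeR, adjusted p = 0.960). For Ccna2 the difference was 0.27 ± 0.46, with a 95% interval of -0.73 to 1.28, and for Ccne2 it was 0.13 ± 0.24, with an interval of -0.39 to 0.65.

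Between females and males, 0 of the 10 genes were called in AVF, where 0.00451% of all genes were higher and 0.018% lower in females, and 0 in sham, where 0.0226% were higher and 0.0226% lower (edgeR's quasi-likelihood test, and 0 with DESeq2 as well). At an unadjusted p under 0.05 there were 4 in AVF, where 4.53% of all genes were, and 1 in sham, where 7.58% of all were, a share near that of all genes. Over both operations 0 were called by edgeR, where 0.0496% of all genes were higher and 0.0857% lower in females, and DESeq2 called 1, Ccnd1, lower in females (adjusted p = 0.00821), where it called 0.848% of all genes in either direction. Those with an unadjusted p under 0.05 were Ccnd1, Ccne1, Cdkn1a and Cdkn2a, the last on 15 counts in all, where 7.44% of all genes had such a p. That comparison over both operations was added after the data were seen.

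Ccnd1 was 68.2, 68.8 and 98.7 normalized CPM in AVF females and 115, 118 and 118 in AVF males. In sham it was 71.8, 86.9 and 110.0 in females and 109.5, 145 and 152 in males. Females were thus lower on average in both operations. The sexes were apart in AVF and overlapped in sham, where the highest female was just above the lowest male. The log2 fold change over both operations was -0.59 ± 0.13 (SE, edgeR, adjusted p = 0.155).

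Cdkn1a went the other way, at 53.1, 55.4 and 67.3 normalized CPM in AVF females and 24.4, 33.1 and 37.5 in AVF males. In sham it was 22.4, 44.0 and 62.9 in females and 17.3, 23.3 and 41.2 in males, and these overlapped. Its log2 fold change over both operations was 0.77 ± 0.26 (SE, edgeR, adjusted p = 0.549). In AVF, females lay wholly above males for Ccne1 and Cdkn1a and wholly below for Ccnd1 and Ccnd3, where 3.84% and 4.54% of all genes did so.

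The OUT samples #05 and #09 were not set against the nAVF samples by a test, since they had been chosen by their expression. For Ccna2 they held 26.6 and 36.6 normalized CPM, inside the 21.6 to 50.3 of the nAVF samples. For Ccne2 they held 11.4 and 14.1, where nAVF ran from 12.8 to 15.9. Without both samples Ccna2 had a log2 fold change of 2.10 ± 0.25 (SE, edgeR, adjusted p = 0.000828) and Ccne2 of 1.20 ± 0.12 (SE, edgeR, adjusted p = 0.000487), so both were as large as with them.

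Around the 10 genes, 35 other G1/S genes were read from a list (kinases, E2F and DP factors, pocket proteins, other INK4 inhibitors, turnover of cyclins, and upstream regulators). Of these 9 were called higher and 0 lower in AVF (edgeR's quasi-likelihood test, with 14 higher and 3 lower at an unadjusted p under 0.05, and 14 higher and 0 lower with DESeq2), and the median log2 fold change was 0.16. Of all tested genes 8.63% were called higher by edgeR, 31.6% had an unadjusted p under 0.05 in either direction, and DESeq2 called 21.4% in either direction. Among the kinases Cdk4, the partner of the D-type cyclins, rose by 0.38 on the log2 scale (edgeR, adjusted p = 0.0164), from 29.2 to 33.1 normalized CPM in sham to 36.4 to 48.2 in AVF. Cdk6 (log2 fold change 0.48, adjusted p = 0.0910) and Cdk2 (0.04, adjusted p = 0.825) did not pass the test. Rb1, 1 of the 3 pocket proteins these kinases act on, was at -0.10 (adjusted p = 0.471). None of the 3 was called by edgeR. The other 2 had an unadjusted p under 0.05, in opposite directions.

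Of the 10 E2F and DP factors 4 were called higher, where 8.63% of all tested genes were. E2f8, an atypical E2F that represses E2F targets, rose 3.76-fold (log2 fold change 1.91 ± 0.21, edgeR, adjusted p = 0.000272), from 1.27 to 2.12 normalized CPM in sham to 4.92 to 9.25 in AVF. E2f7, the other atypical repressor, rose 1.90-fold (adjusted p = 0.00449), and E2f3 rose 1.26-fold (adjusted p = 0.0398). E2f1, the activator E2F best known for S phase entry, was at a log2 fold change of 0.45 and did not pass (adjusted p = 0.0830).

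Of the 9 genes for turnover of cyclins and inhibitors 4 were called higher, where 8.63% of all tested genes were. Skp2, which marks p27 for destruction, rose 1.63-fold (adjusted p = 0.0177), and Cks1b, its cofactor, rose 1.69-fold (adjusted p = 0.00306). Dtl, which directs the destruction of Cdt1 and p21, rose 2.14-fold (adjusted p = 0.00257), and Ccnf (cyclin F), part of another ubiquitin ligase, rose 2.62-fold (adjusted p = 0.0209, all edgeR). None of the 3 other INK4 inhibitors was called by edgeR, and 0 had an unadjusted p under 0.05. Trp53 (log2 fold change 0.08, adjusted p = 0.646) and Mdm2 (0.05, adjusted p = 0.741), upstream of p21, did not pass either.

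**Figure D4:**
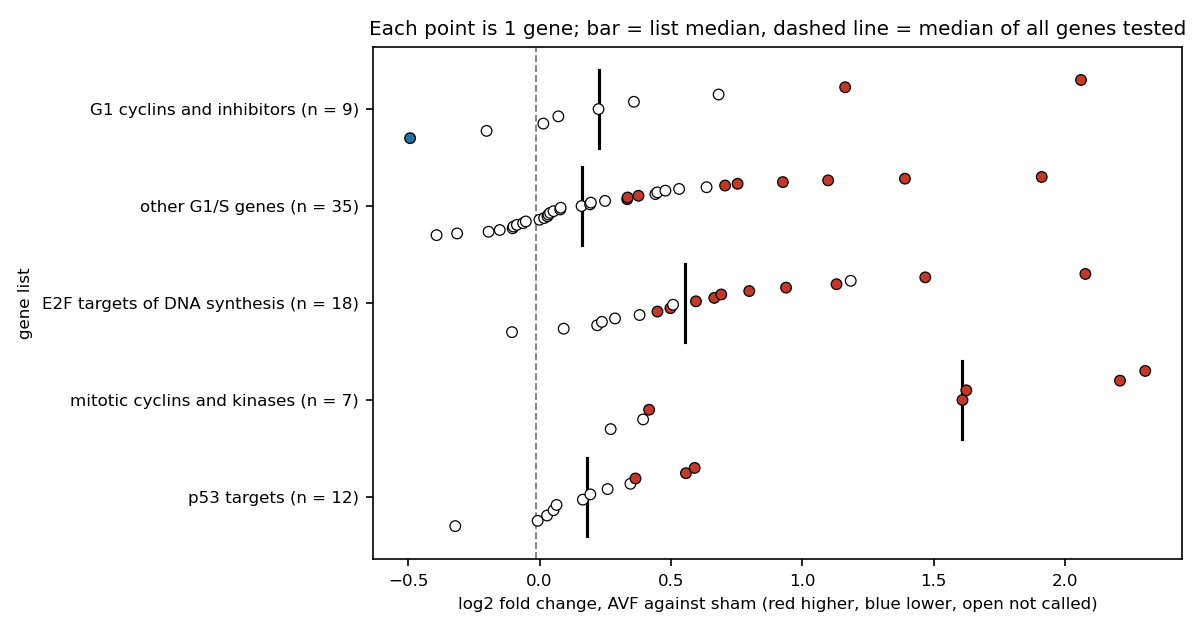
Log2 fold change of AVF against sham (horizontal axis) of each tested gene in 5 lists, 1 point per gene, red called higher, blue called lower and open not called by edgeR's quasi-likelihood test; the bar is the median of a list and the dashed line, at -0.01, the median of all tested genes. Red points are at the right in all 5 lists, and the 1 blue point is Cdkn1c, with list medians of 0.22, 0.16, 0.55, 1.61 and 0.18 from top to bottom.

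Downstream of Rb, 10 of 18 E2F targets of DNA synthesis were called higher and 0 lower (edgeR's quasi-likelihood test, 13 higher and 0 lower at an unadjusted p under 0.05), with a median log2 fold change of 0.55. Of all tested genes 8.63% were called higher and 5.13% lower, and 31.6% had an unadjusted p under 0.05 in either direction. Tk1 (thymidine kinase) rose 4.22-fold (adjusted p = 0.00123) and Rrm2, the regulated subunit of ribonucleotide reductase, rose 2.77-fold (adjusted p = 0.00108), while Rrm1, its partner, rose 1.59-fold (adjusted p = 0.00559). Tyms (thymidylate synthase) rose 1.74-fold (adjusted p = 0.00244) and Cdt1, a licensing factor of replication, 2.19-fold (adjusted p = 0.0202). The helicase subunits Mcm5, Mcm2 and Mcm6 rose 1.92-fold (adjusted p = 0.0185), 1.62-fold (adjusted p = 0.0118) and 1.41-fold (adjusted p = 0.0237).

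Of the 7 mitotic cyclins and regulators of their kinase 5 were called higher and 0 lower (edgeR, 5 and 0 also at an unadjusted p under 0.05), with a median log2 fold change of 1.61. Among all tested genes 8.63% were called higher and 5.13% lower. Of the p53 targets other than Cdkn1a, 12 of 13 were tested, 3 were called higher and 0 lower (edgeR, 4 and 0 at an unadjusted p under 0.05, where 31.6% of all genes had such a p), and the median was 0.18. These 3 were Bax, a promoter of apoptosis, at 1.51-fold (adjusted p = 0.0120), Eda2r, a receptor of the tumour necrosis factor family, at 1.47-fold (adjusted p = 0.0149), and Plk2, a kinase, at 1.29-fold (adjusted p = 0.0391). Without #05 and #09, 1 of the 12 was called, where 7.92% of all genes were called in either direction.

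Markers of other cell types moved with the same contrast, in which 8.63% of all tested genes were called higher and 5.13% lower. Of the 6 macrophage markers 5 were called higher, and their summed level was 1001 to 1599 normalized CPM in AVF and 512 to 859 in sham, with none at 0 in a library. Of 6 fibroblast markers 4 were called higher, with summed levels of 10224 to 15847 in AVF and 5482 to 10096 in sham and none at 0. Col1a1 alone had a mean of 8287 in AVF and 3284 in sham. Pdgfra at 1.03-fold and Dcn at 1.09-fold were not called (edgeR, adjusted p = 0.900 and 0.665). Of 6 brown fat markers 3 were called lower, with summed levels of 42.9 to 310 in AVF and 95.2 to 1702 in sham, and 1 of the 6 was at 0 in some library. All 6 hepatocyte markers were called higher through #05 and #09. The part of these cells in the values of Ccna2, Ccne2 and Cdkn1c was not tested.

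The genes most like each called member were taken as the 3 tested genes with the smallest root mean square difference in log2 CPM, centred per gene, over the 12 libraries. For Ccna2 they were Tpx2, a spindle assembly factor, Hmmr, a hyaluronan receptor also found on the spindle, and Pbk, a mitotic kinase, at 0.16, 0.17 and 0.20 where the median tested gene was at 1.14. For Ccne2 they were Cenpk, a kinetochore gene, E2f7 and Ext1, an enzyme of heparan sulfate synthesis, at 0.20, 0.21 and 0.22 (median of all 0.68). For Cdkn1c they were Coil, a protein of Cajal bodies, Pik3ip1, an inhibitor of PI3 kinase, and Ptgs1, cyclooxygenase 1, at 0.14, 0.16 and 0.16 (median of all 0.45). These are descriptions over libraries that share the 2 operations.

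Because E2F factors act through promoters, the 250 bases before the start site of each gene's principal transcript were read from GRCm39. The promoter shown is that of Ccna2, the gene with the largest change of the 9 tested members. The window of Ccne2 overlaps exons of its other transcripts and is not shown. The sequence is written 5′ to 3′ on the strand of the gene, ending 1 base before the start site. Capitals mark, on either strand, the last 6 letters of the 8-letter E2F motifs TTTCCCGC, TTTCGCGC, TTTGCCGC and TTTGGCGC.
Ccna2, chr3:36626300-36626549, minus strand: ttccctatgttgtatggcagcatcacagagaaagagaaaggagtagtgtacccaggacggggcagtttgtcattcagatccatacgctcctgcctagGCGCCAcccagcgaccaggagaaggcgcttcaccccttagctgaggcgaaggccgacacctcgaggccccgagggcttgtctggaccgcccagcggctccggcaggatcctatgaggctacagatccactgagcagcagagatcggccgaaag

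An 8-letter motif on either strand was found in 1 of the 10 windows (10%, exact 95% binomial interval 0.253% to 44.5%), that of Ccnd3 (TTTGGCGC at -226 to -219 from the start site), and in 2.23% of the windows of 21627 protein-coding genes. Neither Ccna2 nor Ccne2 held one. It was found in 6 of 35 other G1/S genes (17.1%) and in 4 of 18 E2F targets (22.2%). The 6 letters alone were found in 7 of the 10 windows (70%) and in 33.6% of all, among them Ccne2 at -8 to -3 and Ccna2 at -153 to -148. The windows of the 10 genes held 59.6% to 74.0% G and C, and their part in the 6-letter matches was not tested. A match is a run of letters and not a binding site, and no match says only that these letters are absent from this window.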

How the data were processed

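Poly-A RNA of the IVC was sequenced from 12 mice, 3 in each combination of operation and sex. Per the methods, reads went through PRINSEQ 0.20.4 and Trimmomatic 0.39 and were placed on GRCm39 (Ensembl 106 genes) by STAR 2.7.7a, and the authors deposited the expected counts that RSEM 1.3.3 estimates, by gene and not normalized. Of the 120 values of the 10 genes, 1 was not whole. Samples were grouped by their labels, and #05 and #09 were named OUT from the text of the paper.

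Counts were rounded and scaled by TMM in edgeR 4.0.16 (R 4.3.3). The quasi-likelihood test was used, with p values adjusted by Benjamini-Hochberg over all tested genes. AVF against sham was fitted on operation alone over genes above 1 CPM in 2 or more samples, and the other comparisons on 4 groups over genes with more than 12 counts in all. A call was an adjusted p under 0.05, and a DEG also was changed by 1 or more on the log2 scale. P values set the difference between groups against the spread between mice, each of which gave 1 library. In AVF against sham that spread also held any difference between the sexes, as sex was not in the fit. Depth was 15177881 to 22717423 counts, and limits based on 3 counts cover counting error only.

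The 10 genes and the gene lists were chosen with earlier results of these data known. The genes named are all 10, 8 regulators fixed by symbol (Cdk2, Cdk4, Cdk6, Rb1, E2f1, Trp53, Mdm2 and Skp2), up to 8 genes with the lowest p value per direction among those called in the other G1/S, p53-target and E2F-target lists, and the 3 most alike genes per called member, after log2 transformation (prior count 1). Gene names, exon lengths (union of all annotated exons), start sites and promoters came from the GENCODE M39 annotation of GRCm39, a later release than that of the authors. The tests were checked on simulated data. Alternatives were edgeR's exact test, DESeq2 1.42.0, relative log expression size factors, other filters, sex as a covariate, a block, leaving out ribosomal RNA genes, each sample, or #05 and #09. Lists of T cell, B cell, neutrophil, white fat, sympathetic neuron, Schwann cell, striated muscle and erythroid markers had 0 genes called between AVF and sham by edgeR. At an unadjusted p under 0.05 there were 1 B cell gene, higher in AVF, and 4 Schwann cell, 3 striated muscle and 5 sympathetic neuron genes, all lower. The other 4 lists had 0, and 31.6% of all tested genes had such a p in either direction.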

Additional observations from a re-analysis of the deposited data

Results flagged for a closer look

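In 70 groups of 6 samples (the 10 genes and the regulators named with them, in AVF and in sham), 6 had a sample whose gap to its nearest neighbour passed Dixon's 95% limit as a share of the range of the group, where chance gives about 1 group in 20. For Cdkn2a, sham sample #18 had 0.212 normalized CPM and the next 0.0485, a matter of 5 counts against 1. For E2f8, AVF sample #11 had 9.25 normalized CPM and the next 6.09, and for Tk1 the same sample had 6.48 and the next 3.36. Sample #11 also had the highest Ccna2 and Ccne1 of all 12. For Bax, sham sample #22 was the lowest at 4.11 normalized CPM with the next at 4.83, and for Rrm1 the same sample was the lowest at 22.9 with the next at 28.7. For Rrm2, sham sample #19 was the highest at 9.15 normalized CPM with the next at 5.64, and it was also the highest sham sample for Ccna2.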

How the results depend on the processing

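The calls of Ccne2 and Ccna2 between AVF and sham held under all 22 alternatives, with log2 fold changes of 1.11 to 1.21 and 1.90 to 2.18. Members called lower went from 1 to 0 with edgeR's exact test and to 0 without #05 and #09. These fits called 12.6% and 7.92% of all genes in either direction, against 13.8% in the main fit. In females, members called higher went from 2 to 0 when only the 6 female samples were fitted. That fit called 0.0447% of all genes in either direction, where the main fit called 2.21% in females. In males, members called higher went from 2 to 1 (Ccne2) without #05 and #09, to 1 (Ccna2) with only the 6 male samples, and to 1 with the replicate block of sex and number (Ccne2). Of all genes 0.29%, 0.675% and 0.826% were called in males in these fits, against 0.541% in the main fit. When each sample was left out, 0 to 2 members were called higher in males, where 0.0228% to 0.7% of all genes were called in either direction. DESeq2 called 1 member lower in males and 1 lower in females over both operations, and 14 of the other G1/S genes higher, where the exact test called 5. Of all genes DESeq2 called 3.2%, 0.848% and 21.4% in either direction in these 3 comparisons, and the exact test called 12.6% between AVF and sham. Without #05 and #09, 1 of the other G1/S genes was called lower (0 to 2 when each sample was left out, the 2 being without #09) and 1 p53 target higher. Of all genes 7.92% were called in either direction without #05 and #09, and 8.39% to 16% when each sample was left out. The log2 fold change of Ccnd3 changed sign to -0.012 without #05 and #09, and ran from -0.025 to 0.058 when each sample was left out, falling below 0 without #05, #16, #18 or #23. The cause of these changes was not tested. The main fits did not pair samples by replicate number. The mean correlation of same-numbered AVF and sham samples was 0.05, and 3 of 6 were over 0.1. For differently numbered samples of the same sex it was -0.02, and 3 of 12 were over 0.1. These few values cannot settle whether the samples were paired. The block changed no other call of a member. Over all genes it moved the calls from 490 to 1050 in females, from 120 to 183 in males and from 2190 to 1980 in both sexes together. Depth limits any comparison of Cdkn2a, which had 0 to 5 counts per library.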
